A study of Mus musculus with 10 samples.

Results

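The genes that carry glucose into retinal cells, and the genes that answer the sugar phosphates made from it, were read from CUT&Tag profiles of histone H3 lysine 18 lactylation (H3K18La) and lysine 27 acetylation (H3K27Ac). CUT&Tag tethers a transposase to an antibody on chromatin, so that fragments are recovered where the modified histone lies. The 8 genes were Slc2a1, Slc2a3, Mlxip, Mlxipl, Mlx, Txnip, Arrdc4 and Gfpt1. Every peak that the authors assigned to one of these symbols was taken, at promoters and elsewhere, in both marks and at both glucose levels. This gave 23 of 108253 peaks, 8 of them at promoters and 15 elsewhere. Peaks were found for 7 of the 8 genes, 9 for Slc2a1, 5 for Arrdc4, 3 for Slc2a3, 2 each for Mlxip and Gfpt1, and 1 each for Mlx and Txnip. Mlxipl had 0 peaks.

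All libraries came from retinas of wild-type C57BL/6J mice at postnatal day 28, freed of sclera and retinal pigment epithelium and kept as explants for 48 hours in Neurobasal-A medium. The glucose of the medium was 5 mM in one group and 25 mM in the other, and 500000 dissociated cells entered each assay. For H3K18La there were 3 libraries per glucose level, and for H3K27Ac there were 2 per level, and the labels name no batch. The study's methods call the replicates biological without naming the animals or cultures behind each, and no p-value here reaches beyond the spread between such libraries. In H3K18La that spread was estimated for each peak and shrunk towards its trend with signal. In H3K27Ac the estimated prior degrees of freedom were infinite, so the trend over all peaks of like signal replaced each peak's own replicate spread, and a peak whose replicates lay far apart had no larger SE for it. The explants hold all neurons and glia of the neural retina, so more of a mark per cell and a shift in the cells that carry it cannot be told apart.

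Glucose enters cells through the facilitative transporters of the Slc2a family. Slc2a1 encodes GLUT1, the main carrier of glucose from the blood into the retina and into photoreceptors and Müller glia, and Slc2a3 encodes GLUT3, a high-affinity carrier of neurons. Once phosphorylated inside the cell, glucose activates the related basic helix-loop-helix factors MondoA (Mlxip) and ChREBP (Mlxipl). Both bind DNA together with their partner Mlx at carbohydrate response elements, which are built from E box half-sites a few bases apart. The alpha-arrestins Txnip and Arrdc4 are their best known targets, and the Txnip protein holds back glucose uptake and binds thioredoxin. Gfpt1 encodes the enzyme that sends fructose 6-phosphate into the hexosamine pathway, which makes the donor sugar for O-GlcNAc.

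RefSeq promoter sequences (GRCm38.p6, 250 bases before to 50 bases after the start) were matched for 7 of the 8 genes by symbol, with 8 entries because Mlxipl has more than 1 start. Slc2a3 was not matched. The Txnip, Arrdc4 and Mlx promoters are printed because each lies within a promoter peak described below and holds a motif that was searched for. The Slc2a1 promoter, also within such a peak, is printed for contrast. A short stretch of 1 Mlxipl entry is printed only for the E box it holds, since Mlxipl had no peak. Mlxip and Gfpt1 were matched and also lie within promoter peaks, but hold none of the motifs and are not printed. Capitals mark the letters that a search for 4 motifs found. The first is the Txnip promoter, chr3:96557707-96558006, plus strand, with the direct repeat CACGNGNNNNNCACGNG starting 85 bases before the start.

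Txnip: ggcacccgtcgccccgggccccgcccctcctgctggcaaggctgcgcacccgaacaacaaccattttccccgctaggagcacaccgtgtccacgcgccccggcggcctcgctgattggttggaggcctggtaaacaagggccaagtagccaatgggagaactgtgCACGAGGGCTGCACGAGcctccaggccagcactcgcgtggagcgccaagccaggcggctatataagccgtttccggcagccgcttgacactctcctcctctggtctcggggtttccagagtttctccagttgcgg

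Arrdc4 (chr7:68749189-68749488, minus strand) and Mlx (chr11:101087040-101087339, plus strand) follow, with the E box CACGTG in capitals.

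Arrdc4: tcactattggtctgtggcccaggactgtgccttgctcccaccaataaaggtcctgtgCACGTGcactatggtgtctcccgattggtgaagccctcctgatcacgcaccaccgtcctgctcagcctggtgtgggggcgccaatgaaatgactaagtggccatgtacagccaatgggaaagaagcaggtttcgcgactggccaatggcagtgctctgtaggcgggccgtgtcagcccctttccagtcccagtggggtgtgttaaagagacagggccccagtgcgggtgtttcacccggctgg
Mlx: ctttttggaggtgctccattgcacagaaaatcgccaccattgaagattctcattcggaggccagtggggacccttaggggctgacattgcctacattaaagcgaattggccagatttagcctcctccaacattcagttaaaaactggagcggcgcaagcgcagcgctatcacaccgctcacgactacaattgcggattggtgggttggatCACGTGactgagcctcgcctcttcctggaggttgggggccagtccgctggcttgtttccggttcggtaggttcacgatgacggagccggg

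Slc2a1 (chr4:119108495-119108794, plus strand) is shown for contrast, since none of the motifs was found in it.

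Slc2a1: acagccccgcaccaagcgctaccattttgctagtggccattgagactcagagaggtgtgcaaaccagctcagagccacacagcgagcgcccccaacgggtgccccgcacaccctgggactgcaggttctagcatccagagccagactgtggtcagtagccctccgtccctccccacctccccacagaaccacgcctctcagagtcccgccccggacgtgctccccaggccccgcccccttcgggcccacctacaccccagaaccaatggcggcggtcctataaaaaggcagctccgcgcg

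Motifs were searched on both strands. CACGTG was held by 7.15% of the 32851 promoter entries, and among the members by Arrdc4 (193 bases before the start), Mlx (40 bases) and one of the Mlxipl entries, chr5:135089640-135089939, 98 bases before its start.

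Mlxipl: gccatcCACGTGctaagg

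The direct repeat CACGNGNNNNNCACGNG was held by 16 of the 32851 entries (0.0487%), the Txnip entry among them. The looser palindrome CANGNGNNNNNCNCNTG was held by 0.557% of entries and by 0 of the 8 member entries, and the strict pair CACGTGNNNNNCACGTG by 0 entries at all. A match is a description of letters and shows no binding. The 4 printed promoters held 65.3% G and C (Txnip and Slc2a1), 59.0% (Arrdc4) and 55.0% (Mlx), against a median of 52.7% over all entries.

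Values are RPKM, reads scaled by the width of the peak and by the denominator of the library. Denominators ran from 1358008 to 7424470 reads, and member peaks were thinly covered in H3K18La. At 5 mM, the 9 Slc2a1 peaks held 32 to 107 reads per library together and the Txnip peak 0 or 1. Reads falling in peaks were 11.8% to 12% of the denominator for H3K18La in 5 mM glucose, against 31.2% to 35.0% in 25 mM, and 21.1% and 31.5% against 69.5% and 56.5% in H3K27Ac. Most of the genome's peaks were therefore higher at 25 mM on this scale. The median log2 fold change over the 72467 peaks with a mean of at least 1 RPKM was 1.04 for H3K18La and 0.83 for H3K27Ac, and values of members are to be read against these.

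The comparison of the glucose levels asked at which members each mark was higher at 25 mM. Of the 21 member peaks over the minimum, 8 at promoters and 13 elsewhere, 9 rose in H3K18La and 0 fell (limma on log2(RPKM + 0.5), Benjamini-Hochberg adjusted p under 0.05), where 33.3% of all fitted peaks rose and 0.098% fell. The 9 lay at Slc2a1 (6 peaks), Gfpt1 (both peaks) and Txnip (its only peak). In H3K27Ac, 7 of the 21 rose and 0 fell, against 33.5% and 0.174% of all fitted peaks, and they lay at Slc2a1 (4 peaks) and at the promoters of Gfpt1, Arrdc4 and Mlx. All 7 H3K27Ac calls were lost without either 25 mM library and with replicate numbers as a block (10.7% of all peaks called). The Txnip peak and the Arrdc4 peak 60418 bp before the start averaged under 1 RPKM at 5 mM (0.662 and 0.985) and met the minimum through 25 mM, so these counts describe the members and support nothing further. No peak of Slc2a3 or Mlxip passed in either mark. The median log2 fold change of the 21 was 1.10 in H3K18La and 0.97 in H3K27Ac. Among the 8 promoter peaks, 3 rose in H3K18La and 4 in H3K27Ac, where 26.8% and 58.0% of promoter peaks did. Both medians were close to those of all peaks, and the share of members that rose in H3K27Ac was at the background.

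**Figure D1:**
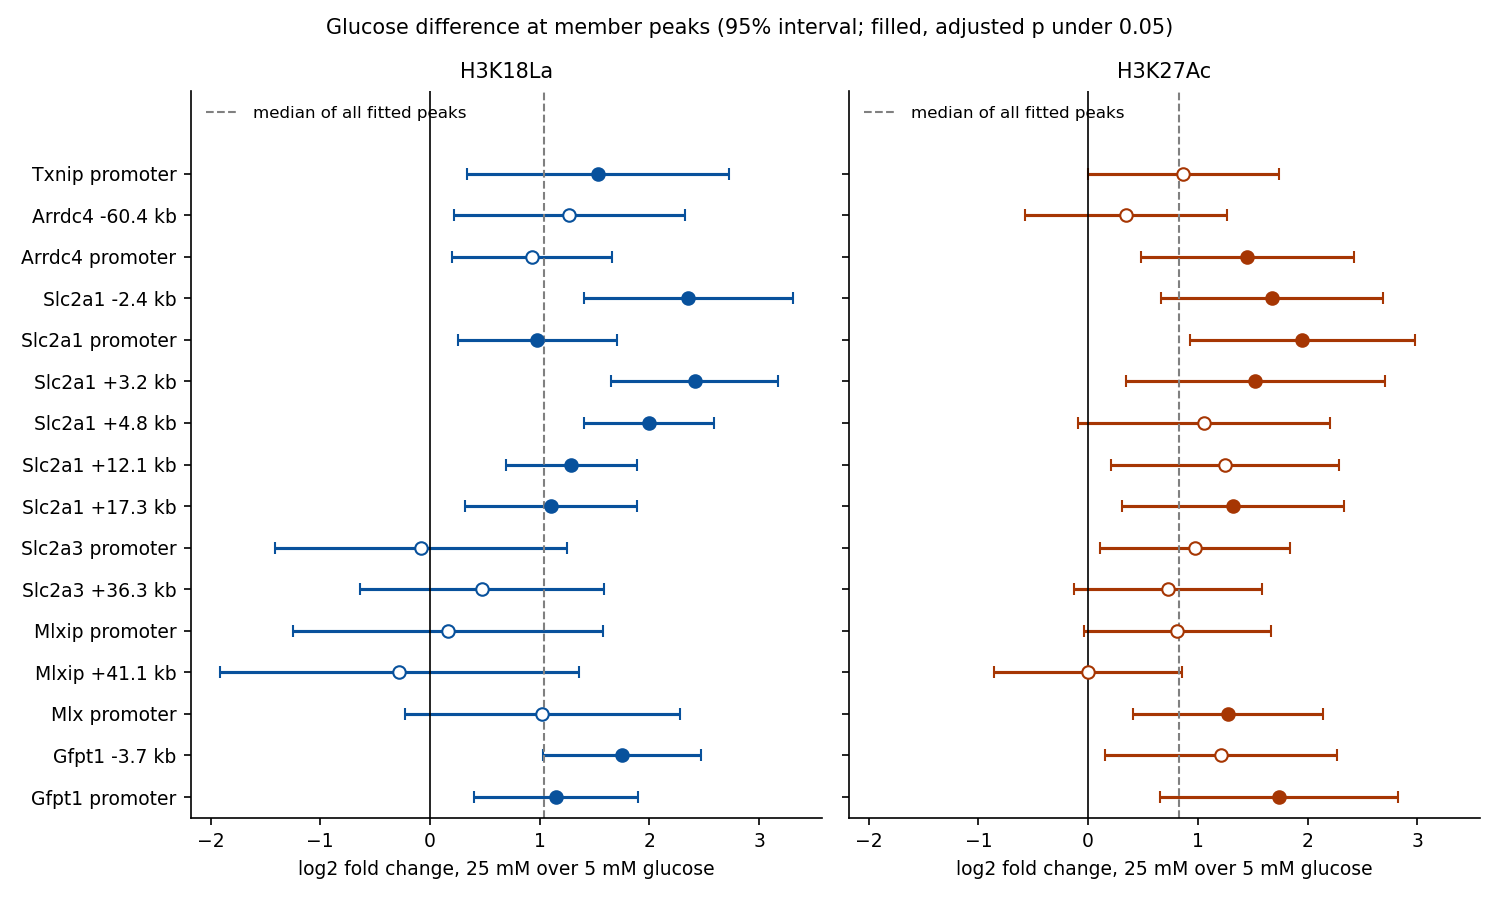
Log2 fold change of 25 mM over 5 mM glucose (x axis) for 16 of the 21 fitted member peaks, H3K18La on the left and H3K27Ac on the right, with 95% intervals. The 16 are the peaks given library by library in the text. Those left out passed in neither mark and include the lowest H3K18La value of the members, -0.58. Filled points passed an adjusted p of 0.05, and the dashed line is the median of all fitted peaks, 1.04 and 0.83. In H3K18La the Slc2a1 peaks at -2.4, +3.2 and +4.8 kb stand farthest to the right, and the Slc2a3 and Mlxip peaks lie left of the dashed line.

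Slc2a1 (ENSMUSG00000028645, chr4:119108711-119137983, plus strand) had the most peaks of the 8 genes and the strongest single peak. That peak, chr4:119111898-119113025, lies 3187 bp beyond the start and is annotated as 5' UTR. It had a mean of 24.2 RPKM over the 10 libraries, at percentile 99.9 of all peaks. In H3K18La the 5 mM libraries stood at 2.10, 2.91 and 5.88 RPKM and the 25 mM libraries at 26.2, 19.8 and 15.2. The groups did not overlap, and the lowest 25 mM library was well above the highest at 5 mM. The log2 fold change was 2.41 ± 0.35 (SE; 95% interval 1.65 to 3.17, adjusted p = 0.000784), at percentile 97.2 of all fitted peaks, and it passed with each of the 6 libraries left out in turn. H3K27Ac at the same peak was 18 and 25.6 RPKM at 5 mM and 70.6 and 55.6 at 25 mM. That difference was 1.52 ± 0.60 (SE, adjusted p = 0.0381), and it did not pass without replicate 1 at 5 mM or either 25 mM library (adjusted p 0.0577 to 0.54).

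The promoter peak of Slc2a1, chr4:119108489-119109517, ordered the marks differently. Its H3K18La was 2.76, 2.81 and 2.86 RPKM at 5 mM (SD 0.049, n = 3) and 8.90, 5.74 and 4.26 at 25 mM. The log2 fold change of 0.98 ± 0.33 (SE, adjusted p = 0.0413) was close to the median of all promoter peaks, 0.97. Leaving out any library but replicate 3 at 25 mM ended the call (adjusted p from 0.0551 to 0.139), as did the replicate block (adjusted p = 0.0522). H3K27Ac at the promoter was 7.42 and 9.70 RPKM at 5 mM and 48.5 and 24.2 at 25 mM. The replicates at 25 mM were far apart, and both were above both 5 mM libraries. The log2 fold change was 1.95 ± 0.52 (SE, adjusted p = 0.0032), at percentile 93.8 among promoter peaks. This call too was lost, without replicate 1 or 2 at 25 mM (adjusted p = 0.413 and 0.117) and under the replicate block (adjusted p = 0.0868).

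**Figure D2:**
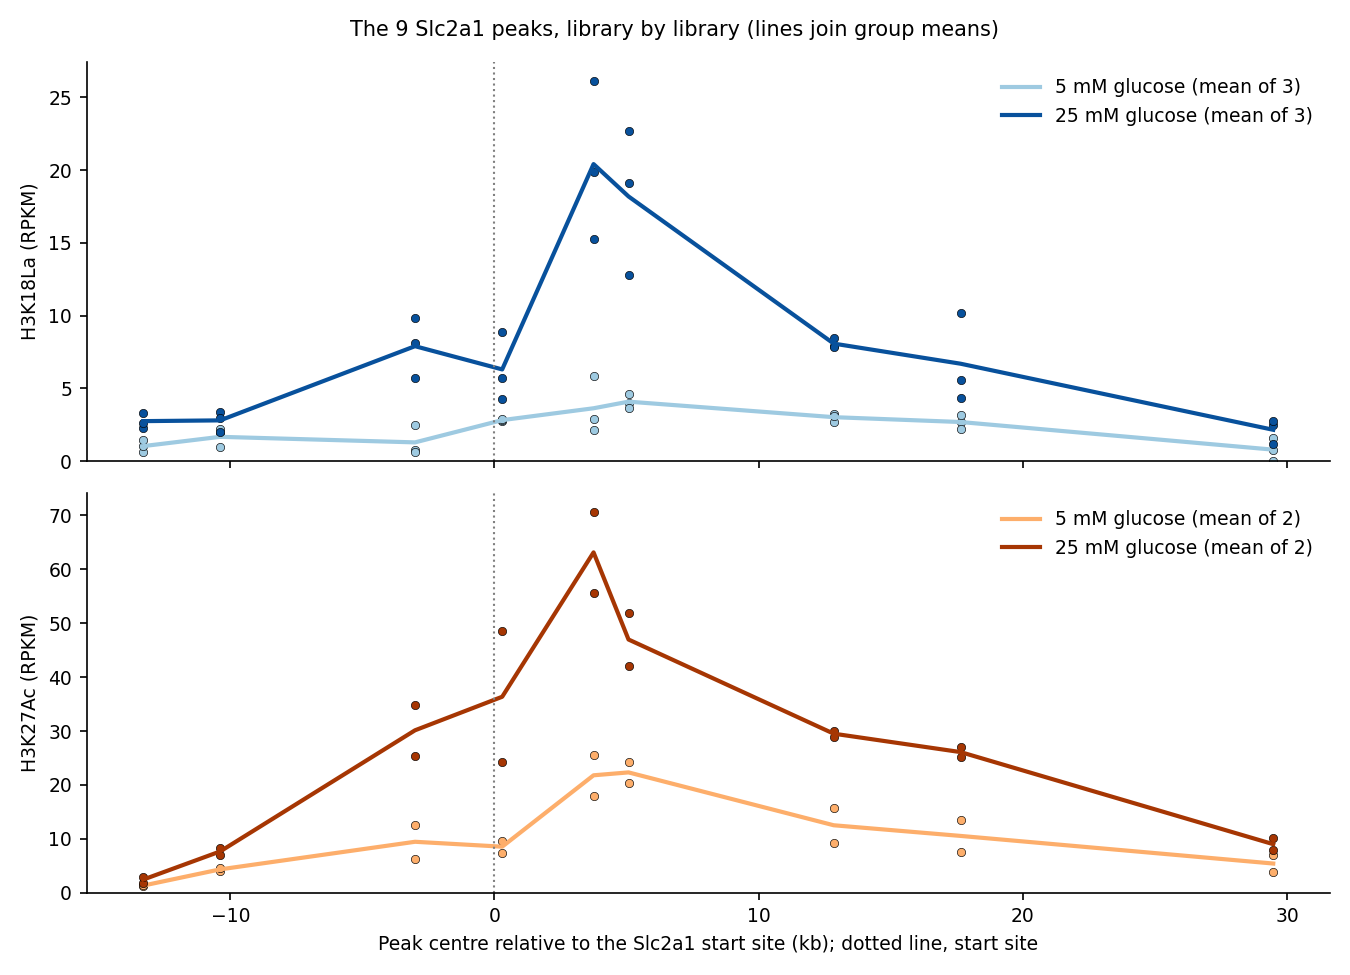
RPKM (y axis) of the 9 Slc2a1 peaks by the distance of the peak centre from the start site in kb (x axis), H3K18La above and H3K27Ac below, with a point per library and lines through the group means. H3K18La at 25 mM climbs from 6.30 RPKM at the promoter to 20.4 at the peak 3187 bp beyond it, while at 5 mM the line stays between 0.782 and 4.08.

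Of the other Slc2a1 peaks, 4 passed in at least 1 mark and are given by library for that reason, a choice made after their values were seen. The peak 2388 bp before the start, annotated as distal intergenic, had H3K18La of 0.765, 2.49 and 0.594 RPKM at 5 mM and 9.85, 8.13 and 5.71 at 25 mM. It rose by 2.36 ± 0.43 on the log2 scale (SE, adjusted p = 0.00243), on 1 to 16 reads per library at 5 mM. Its H3K27Ac was 6.34 and 12.6 RPKM at 5 mM and 34.9 and 25.4 at 25 mM, a rise of 1.68 ± 0.52 (SE, adjusted p = 0.00928) that was lost without either 25 mM library (adjusted p = 0.415 and 0.19). Thus the groups were apart in both marks on each side of the promoter. In intron 1 of 9, 4836 bp beyond the start, H3K18La was 3.98, 3.64 and 4.63 RPKM at 5 mM and 12.8, 22.7 and 19.1 at 25 mM, a rise of 2.00 ± 0.27 (SE, adjusted p = 0.000666). H3K27Ac there was 20.4 and 24.3 and then 51.9 and 42.1 RPKM, and its difference of 1.05 ± 0.59 (SE, adjusted p = 0.143) did not pass although the groups did not overlap.

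Both peaks of intron 2 of 9 had smaller H3K18La log2 fold changes. At 12132 bp beyond the start, H3K18La was 2.67, 3.26 and 3.11 RPKM at 5 mM and 7.89, 8.49 and 7.84 at 25 mM, which rose by 1.29 ± 0.27 (SE, adjusted p = 0.00488). H3K27Ac at that peak was 9.29 and 15.8 and then 30.1 and 29.0 RPKM (log2 difference 1.25 ± 0.53 SE, adjusted p = 0.0536). At 17291 bp, H3K18La went from 2.70, 2.20 and 3.15 to 10.1, 5.61 and 4.32 RPKM, and H3K27Ac from 7.58 and 13.5 to 25.2 and 27.1. The log2 rises were 1.10 ± 0.36 (SE, adjusted p = 0.0345) and 1.32 ± 0.52 (SE, adjusted p = 0.0367). The H3K18La call there ended without replicate 1 or 2 at 5 mM or replicate 1 or 2 at 25 mM (adjusted p 0.0598 to 0.126). The H3K27Ac call ended without replicate 1 at 5 mM or either 25 mM library (adjusted p 0.104 to 0.431) and under the replicate block (0.211). The other 3 Slc2a1 peaks, 12534 and 9878 bp before the start and in the 3' UTR, were the weakest of the gene, with means of 1.89, 3.74 and 3.77 RPKM, and did not pass in either mark.

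Within a library, ratios between peaks do not depend on the denominator. Background reads within peaks can still move such ratios, and the share of reads in peaks differed between glucose levels. The part of background in the ratios was not tested. The peak 3187 bp beyond the start held 0.760, 1.03 and 2.05 times the H3K18La RPKM of the promoter at 5 mM and 2.94, 3.46 and 3.58 times at 25 mM. The order was the other way in H3K27Ac, with ratios of 2.43 and 2.63 at 5 mM and 1.46 and 2.30 at 25 mM. The peaks at 3187 and 4836 bp together took 25.0%, 24.3% and 37.5% of the H3K18La reads of the 9 peaks at 5 mM and 42.4%, 45.6% and 43.3% at 25 mM, and 37.0% to 41.5% of the H3K27Ac reads in all 4 libraries. The ratios to the promoter were apart between glucose levels in each mark, and the shares of reads in H3K18La alone. These ratios were formed after the values of the peaks had been seen and are given as a description with no test, and they rest on only 32 to 107 reads per H3K18La library at 5 mM.

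**Figure D3:**
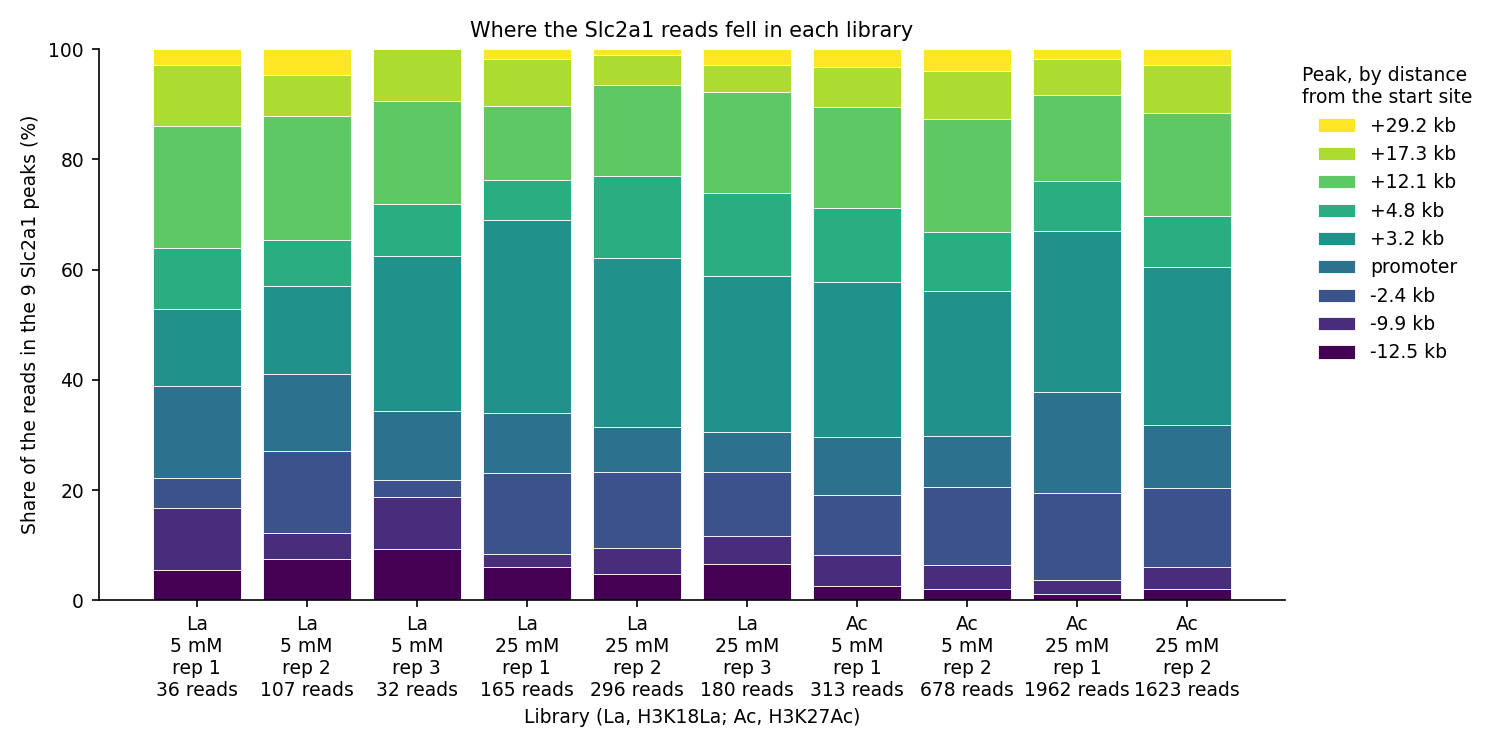
Share of the reads of the 9 Slc2a1 peaks that fell in each peak (stacked bars, %), for each library, with the number of reads under the bar. The band of the peak at +3.2 kb takes 13.9% to 28.1% for H3K18La in 5 mM glucose and 28.3% to 35.2% in 25 mM, against 26.4% to 29.2% over the H3K27Ac bars.

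Whether the glucose difference itself differed between the marks was tested as an interaction over all 10 libraries. No peak passed among all 72467 (0.0% called; 5.04% had an unadjusted p under 0.05), and none of the 21 member peaks did (limma). The smallest member p was that of the Slc2a1 peak at 4836 bp, where the difference was smaller in H3K27Ac by 0.94 on the log2 scale (unadjusted p = 0.048, adjusted p = 0.903). It was the only member peak under an unadjusted 0.05. At the Slc2a1 promoter the difference ran the other way, larger in H3K27Ac by 0.97 (unadjusted p = 0.0976, adjusted p = 0.903).

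Slc2a3 (ENSMUSG00000003153, chr6:122727809-122801640, minus strand), the neuronal carrier, had no single peak that passed in either mark. Its promoter peak with the most signal, chr6:122741435-122742789, lay at the start of the transcript chr6:122727809-122742745, inside the annotated gene. H3K18La there was 1.75, 0.427 and 0.543 RPKM at 5 mM and 1.50, 0.726 and 0.249 at 25 mM. The groups overlapped almost entirely, and the difference was -0.08 ± 0.61 (SE; 95% interval -1.42 to 1.25, adjusted p = 0.924). H3K27Ac at this promoter was 1.54 and 1.43 RPKM at 5 mM and 4.41 and 2.58 at 25 mM, with groups apart and a log2 difference of 0.97 ± 0.44 (SE, adjusted p = 0.0691). The strongest peak away from a promoter lay in intron 2 of 4 of a longer transcript, chr6:122737085-122801640. It had 1.20, 0.490 and 1.40 RPKM of H3K18La at 5 mM and 0.968, 1.72 and 2.14 at 25 mM. The H3K27Ac of that peak was 1.91 and 2.04 and then 4.32 and 2.99 RPKM, and the log2 differences of 0.47 ± 0.51 and 0.73 ± 0.44 (SE, adjusted p = 0.476 and 0.175) did not pass. The promoter peak of the longer transcript, at the outer start, chr6:122801017-122802498, ran from 0.228 to 2.48 RPKM in H3K18La. In H3K27Ac it ran from 0.468 to 2.25, and groups overlapped in both marks. Its H3K18La log2 difference, -0.58, was the lowest of the 21 fitted member peaks and did not pass. All 3 peaks were weak, at means of 1.30 to 1.92 RPKM, and the interval of the inner promoter leaves out the 2.41 of the strongest Slc2a1 peak but holds the 0.98 of the Slc2a1 promoter.

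Of the sensors, Mlxip (MondoA; ENSMUSG00000038342, chr5:123394798-123457932, plus strand) had weak peaks. Its promoter peak, chr5:123394301-123395926, had H3K18La of 0.583, 0.712 and 0.453 RPKM at 5 mM and 1.56, 1.21 and 0 at 25 mM, the last library holding 0 reads, which allows up to 3. The log2 difference was 0.17 ± 0.64 (SE; 95% interval -1.25 to 1.58, adjusted p = 0.852). H3K27Ac was 1.42 and 2.28 and then 4.36 and 2.90 RPKM with groups apart, and its difference of 0.81 ± 0.44 (SE, adjusted p = 0.128) did not pass. The other Mlxip peak, 258 bp wide in intron 1 of 16, held 0 to 3 reads per H3K18La library and 2 to 5 per H3K27Ac library. Its H3K18La RPKM was 1.84, 0.748 and 2.85 at 5 mM and 1.97, 0 and 3.92 at 25 mM, and its H3K27Ac 1.79 and 3.12 and then 2.69 and 2.09. The log2 differences, -0.28 ± 0.75 and -0.0029 ± 0.44 (SE, adjusted p = 0.782 and 0.997), were not distinguishable from 0 at this depth.

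Mlxipl (ChREBP; chr5:135089890-135138382, plus strand) had no peak of its own, and no peak assigned to another gene overlapped it. The peak nearest to its annotated start was the one assigned to Vps37d, 11470 bp away. With 0 peaks it has no value in either mark. The regions appear to be H3K18La peaks called in developing retina, so nothing follows for reads of these explants outside them.

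Mlx (chr11:101087277-101092207, plus strand), the shared partner, had a single peak at its promoter, chr11:101086459-101088118. H3K18La was 0.571, 0.232 and 0 RPKM at 5 mM and 1.53, 0.741 and 0.812 at 25 mM, with groups apart on 0 to 2 reads against 4 or 5 per library. The log2 difference of 1.03 ± 0.57 (SE, adjusted p = 0.181) did not pass. H3K27Ac was 2.37 and 3.39 RPKM at 5 mM and 7.70 and 7.46 at 25 mM and rose by 1.27 ± 0.44 (SE, adjusted p = 0.0194), near the median of promoter peaks, 1.23. The call was lost without either 25 mM library (adjusted p = 0.409 and 0.213). This was the only peak called among the 3 factor genes, and a difference between the marks was not detectable there (interaction 0.25 ± 0.68 SE, adjusted p = 0.966).

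The targets came next. Txnip (ENSMUSG00000038393, chr3:96557957-96561883, plus strand) had a single peak, chr3:96557242-96558396, at its promoter and over the direct repeat printed above. The peak was weak, with a mean of 1.35 RPKM at percentile 21.9 of promoter peaks. H3K18La was 0.410, 0.167 and 0 RPKM at 5 mM, on 1, 1 and 0 reads, and 1.32, 1.92 and 1.17 at 25 mM, on 3, 9 and 4 reads. Each 25 mM library was above each 5 mM library, and the summed reads per denominator were 7.69-fold higher at 25 mM (95% exact interval 1.81 to 69.0, counting error only). The log2 fold change of 1.53 ± 0.55 (SE; 95% interval 0.34 to 2.73) had an adjusted p of 0.0496 and lay at percentile 79.7 among promoter peaks. The peak averaged 0.662 RPKM over its 5 mM libraries of both marks and 2.04 over those at 25 mM, so it met the minimum of 1 RPKM through the 25 mM libraries alone, and the p is given as a description. Leaving out any one of the 6 libraries ended the call (adjusted p 0.0546 to 0.152), as did the replicate block (adjusted p = 0.0652). H3K27Ac was 1.20 and 1.53 RPKM at 5 mM and 2.77 and 3.03 at 25 mM, groups that did not overlap, and the difference of 0.87 ± 0.45 (SE, adjusted p = 0.111) did not pass and was below the promoter median of 1.23.

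Arrdc4 (chr7:68736995-68749241, minus strand) had a stronger promoter peak, chr7:68748334-68749628, with a mean of 7.58 RPKM. H3K18La there was 2.20, 2.38 and 1.71 RPKM at 5 mM and 5.11, 3.80 and 4.43 at 25 mM. The groups were apart, and the difference of 0.93 ± 0.33 (SE, adjusted p = 0.0510) just missed the threshold, near the promoter median of 0.97. H3K27Ac was 6.07 and 8.58 RPKM at 5 mM and 23.1 and 18.4 at 25 mM, and it rose by 1.45 ± 0.49 (SE, adjusted p = 0.0173), a call lost without either 25 mM library (adjusted p = 0.418 and 0.216). The 4 other Arrdc4 peaks are distal intergenic, 22060 to 81941 bp before the start, and 2 of them fell under the minimum of 1 RPKM with means of 0.637 and 0.883. The strongest, 60418 bp away, had 1.00, 0.919 and 0.390 RPKM of H3K18La at 5 mM and 1.62, 3.25 and 2.85 at 25 mM (log2 difference 1.27 ± 0.48 SE, adjusted p = 0.0610). Its H3K27Ac, 1.59 and 1.02 and then 1.10 and 2.71 RPKM, overlapped between groups (0.35 ± 0.47 SE, adjusted p = 0.574). The last peak, 74117 bp away, stayed between 0.769 and 2.38 RPKM in all 10 libraries.

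Gfpt1 (chr6:87042846-87092197, plus strand), the entry enzyme of the hexosamine pathway, rose at both of its peaks in H3K18La. Its promoter peak, chr6:87042193-87043354, averaged 14.0 RPKM, at percentile 97.7 of promoter peaks. H3K18La was 2.45, 2.16 and 1.90 RPKM at 5 mM and 7.44, 4.02 and 5.22 at 25 mM, a rise of 1.15 ± 0.34 (SE, adjusted p = 0.0237). The call ended without replicate 2 at 5 mM or without replicate 1 or 3 at 25 mM (adjusted p 0.0545 to 0.0855). H3K27Ac was 11.9 and 13.7 RPKM at 5 mM and 57.1 and 34.0 at 25 mM, a rise of 1.74 ± 0.55 (SE, adjusted p = 0.0111) that was lost without replicate 1 or 2 at 25 mM (adjusted p = 0.453 and 0.212) and under the replicate block (0.173). The second peak, chr6:87037926-87039147, lies 3699 bp before the start. Its H3K18La was 2.33, 1.74 and 4.22 RPKM at 5 mM and 9.58, 9.26 and 11.0 at 25 mM, which rose by 1.75 ± 0.33 (SE, adjusted p = 0.00264) and passed with each library left out. Its H3K27Ac was 10.6 and 17.5 and then 32.3 and 32.2 RPKM (log2 difference 1.21 ± 0.54 SE, adjusted p = 0.0662). The ratio of the upstream peak to the promoter within a library overlapped between glucose levels in both marks, with 0.951, 0.805 and 2.22 against 1.29, 2.30 and 2.11 in H3K18La.

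**Figure D4:**
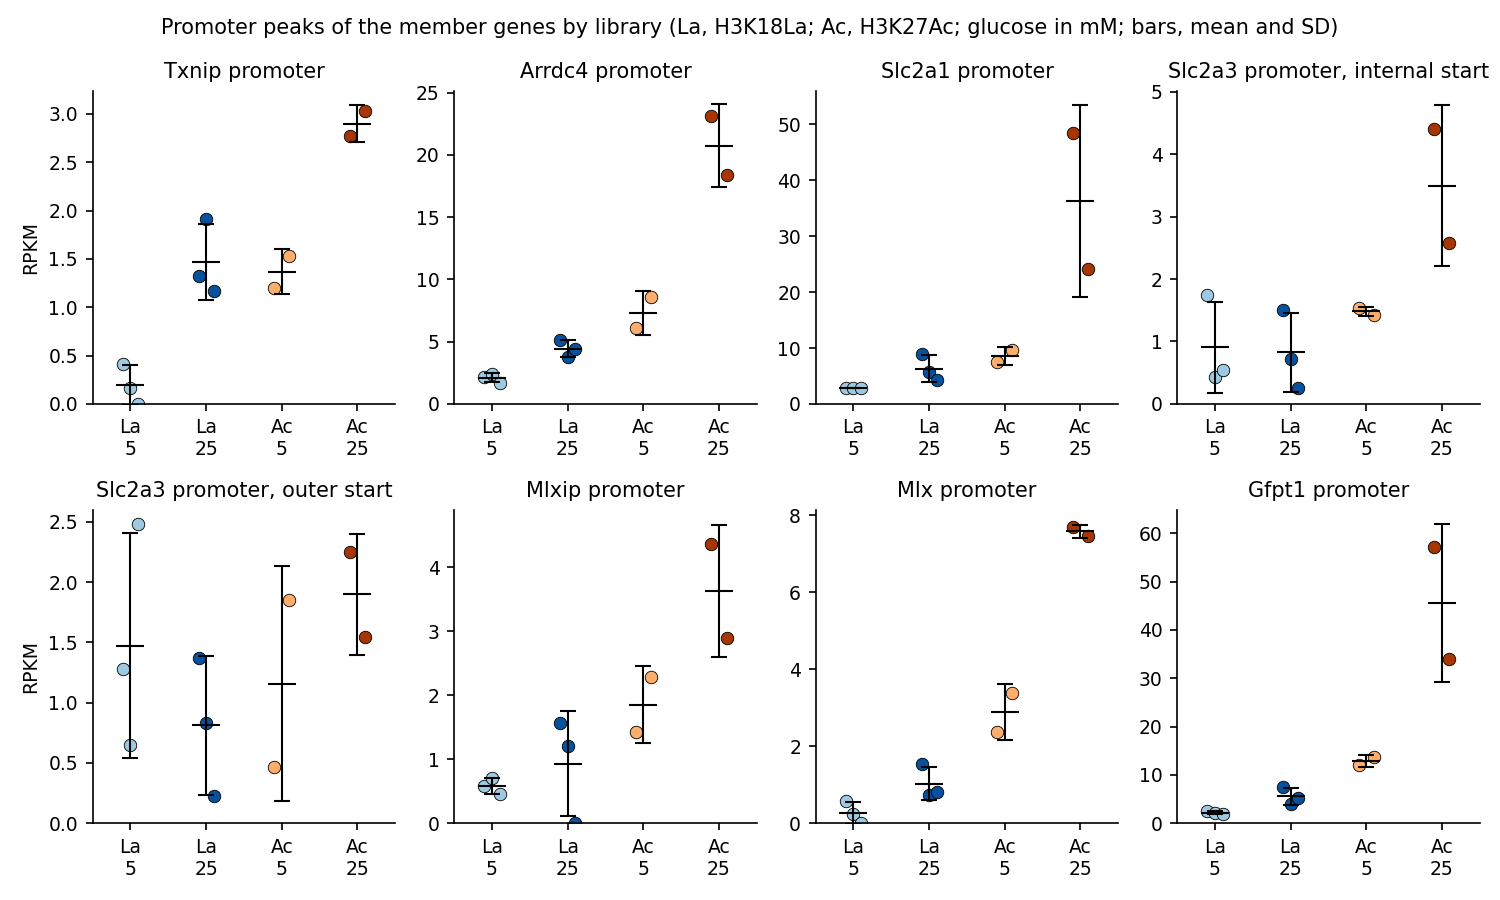
RPKM (y axis, from 0, its own range in each panel) of the 8 promoter peaks of the members in each library, by mark and glucose level in mM, with group mean and SD. The 25 mM libraries sit above the 5 mM libraries in H3K27Ac for all promoters but the outer start of Slc2a3, and in H3K18La for 5 of the 8.

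Every 25 mM library was above every 5 mM library at 13 of the 21 fitted member peaks in H3K18La, where the same held for 50.3% of fitted peaks, and at 17 of the 21 in H3K27Ac, against 68.6%. At no member peak were the groups apart in the other direction. Of the 8 promoter peaks, 5 were apart in H3K18La (50.4% of all promoter peaks) and 7 in H3K27Ac (86.1%). Slc2a1 held 7 of the 13 in H3K18La and 9 of the 17 in H3K27Ac.

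Reads were then summed over the peaks of each gene. In H3K18La, 4 of the 7 genes with a peak rose, where 49.1% of 17359 genes did and 0.0749% fell. The log2 rises were 1.62 ± 0.17 for Slc2a1 (SE, adjusted p = 0.000363), 1.50 ± 0.18 for Gfpt1 (adjusted p = 0.000634), 1.53 ± 0.37 for Txnip (adjusted p = 0.0122) and 0.81 ± 0.20 for Arrdc4 (adjusted p = 0.015). Mlx (1.03 ± 0.42, adjusted p = 0.0788), Mlxip (0.26 ± 0.34, adjusted p = 0.521) and Slc2a3 (0.02 ± 0.33, adjusted p = 0.964) did not pass. The Txnip gene is its single peak, which averaged 0.662 RPKM at 5 mM and 2.04 at 25 mM over both marks. It met the minimum of 1 RPKM through the 25 mM libraries alone, so its gene call is a description, and the count of 4 supports nothing further. Only Slc2a1 and Gfpt1 passed with each library left out. Txnip was lost without replicate 2 at 25 mM (adjusted p = 0.0554), and Arrdc4 without replicate 2 or 3 at 25 mM (adjusted p = 0.058 and 0.0534).

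In H3K27Ac, 6 of the 7 genes rose, and 0 fell, against 62.8% and 0.317% of all genes. The rises ran from 0.77 ± 0.33 for Slc2a3 (SE, adjusted p = 0.0335) and 0.87 ± 0.32 for Txnip (adjusted p = 0.0167) to 1.49 ± 0.49 for Gfpt1 (adjusted p = 0.00826), with Arrdc4 (1.10 ± 0.38), Mlx (1.27 ± 0.41) and Slc2a1 (1.41 ± 0.50) between them. Mlxip (0.71 ± 0.34, adjusted p = 0.0543) did not pass. The Txnip call is again a description for the same reason, and so is the count of 6 that includes it; fitted among peaks, its H3K27Ac difference did not pass (adjusted p = 0.111). Leaving out 1 H3K27Ac library leaves 1 in that group and 1 residual degree of freedom, so the lone library is assumed to vary like the pair in the other group, and the adjusted p then depends on the spread of that pair over peaks or genes of like signal. Leaving out replicate 1 at 25 mM ended all 6 (adjusted p 0.292 to 0.389), as did leaving out replicate 2 at 25 mM (0.0937 to 0.147), and without replicate 1 at 5 mM only 2 were called, where 27.8% of all genes were. Without replicate 2 at 5 mM 7 were called, where 73.8% of all genes were. The calls over all genes fell with them, from 62.8% to 0.778% without replicate 1 at 25 mM and to 11.4% without replicate 2. The 7 peak calls in H3K27Ac likewise fell to 0 without either 25 mM library (adjusted p from 0.117 to 0.54), and without replicate 1 at 5 mM the peak 3187 bp beyond the Slc2a1 start and the one at 17291 bp were lost. Without replicate 2 at 5 mM 12 of the 21 were called. Of all peaks, 0.0124% were called without replicate 1 at 25 mM and 1.2% without replicate 2, and 22.3% and 52.7% without replicate 1 and replicate 2 at 5 mM.

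The scale decided how many members were called. Centring each library on its median feature left 1 of 21 member peaks in H3K18La (1.64% of all peaks called), the Slc2a1 peak at 3187 bp (log2 fold change 1.53, adjusted p = 0.0493), and 2 of 7 genes, Slc2a1 (0.83, adjusted p = 0.0169) and Gfpt1 (0.70, adjusted p = 0.0473), where 8.99% of all genes were called. No member was called in H3K27Ac on that scale (1.22% of all peaks and 1.67% of all genes called). Scaling to the reads in peaks left no call in either mark among the members or among all 72467 peaks (limma; 7672 peaks for H3K18La and 12057 for H3K27Ac had an unadjusted p under 0.05). On that scale the median log2 fold change of the 21 member peaks was -0.12 in H3K18La and -0.14 in H3K27Ac, with 12 and 13 below 0. Over all peaks the medians were 0.053 and -0.21. The largest H3K18La differences at members were 1.26 (95% interval 0.15 to 2.36) 2388 bp before Slc2a1, 1.09 (0.26 to 1.93) at 3187 bp beyond its start and 1.06 (-0.59 to 2.72) at Txnip. Slc2a3 turned negative as a gene, at -1.07 (adjusted p = 0.276), and Mlxip, at -0.76 (adjusted p = 0.37). A fit of all 10 libraries together called 12 member peaks in H3K18La (41.6% of all peaks) and 6 in H3K27Ac (10.1%), and voom on recovered reads called 11 (40.7%) and 10 (34.8%). With replicate numbers as a block, 7 and 0 member peaks were called (32.3% and 10.7% of all), and without the minimum 7 and 0 (16.8% and 0.0%). Of the member genes, the fit of all libraries called 5 in H3K18La (56.8% of all genes) and 4 in H3K27Ac (49.7%), and voom 4 (54.9%) and 6 (64.6%). The block called 4 member genes in H3K18La (45.7% of all) and 0 in H3K27Ac (6.25%), and the fit without the minimum 4 (29.9%) and 0 (0.0%).

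**Figure D5:**
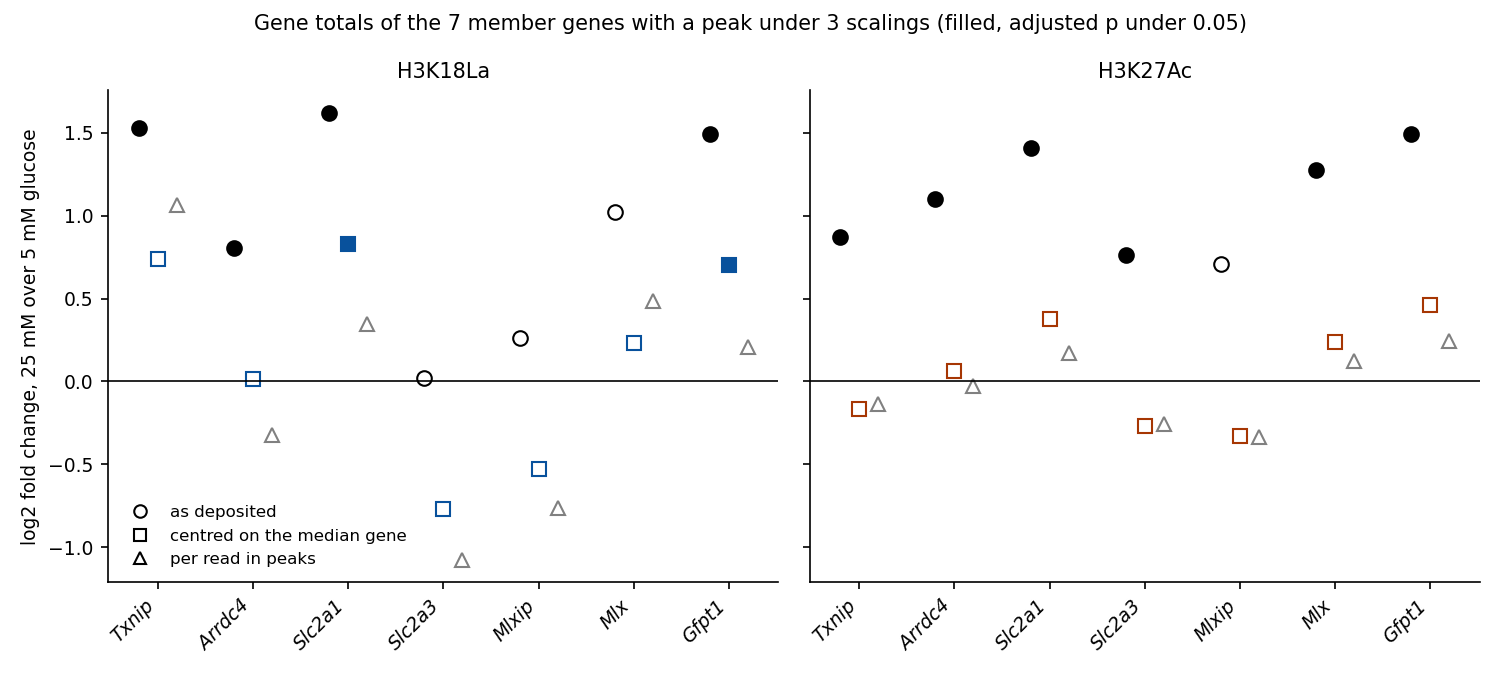
Log2 fold change of 25 mM over 5 mM (y axis) of the summed peaks of each member gene (x axis) under 3 scalings, with filled symbols at an adjusted p under 0.05, H3K18La on the left and H3K27Ac on the right. As deposited, 4 and 6 genes are filled. Centred on the median gene, Slc2a1 and Gfpt1 stay filled in H3K18La, and per read in peaks none is.

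Other genes of the same pathways were taken by their strongest promoter peak from 5 lists. Of 37 fitted promoters, 17 rose in H3K18La and 25 in H3K27Ac, and 0 fell in either, where 26.4% and 59.8% of 12657 promoters rose. Of the targets of ChREBP or MondoA, 10 of 14 fitted promoters rose in each mark, with a median log2 fold change of 1.40 in H3K18La against 0.96 over all promoters. Me1, which encodes malic enzyme, had the largest H3K18La change of that list, from 1.78 ± 0.62 RPKM (SD, n = 3) to 9.36 ± 1.40 (log2 fold change 2.14 ± 0.33 SE, adjusted p = 0.00098). Bhlhe40, a circadian repressor, had the smallest (0.43 ± 0.62, adjusted p = 0.596). Of the 37, the promoters of Slc2a12, Myc and Mycl averaged under 1 RPKM at 5 mM and met the minimum through 25 mM, and 1 of these 3 (Slc2a12, in H3K27Ac) was called. The lists were drawn up with results of these data known, so their counts are descriptions.

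The remaining lists were smaller. Their counts stand against the 26.4% of all promoters that rose in H3K18La and the 59.8% in H3K27Ac. Among glucose transporters, 2 of 6 fitted promoters rose in each mark, and the range ran from Slc2a6 (0.37 ± 0.60 SE, adjusted p = 0.646) to the insulin-responsive carrier Slc2a4 (1.60 ± 0.55, adjusted p = 0.0433) in H3K18La. Of the Mlx network, 4 of 9 rose in H3K18La and 7 of 9 in H3K27Ac. Mxi1, a Max-binding repressor, stood highest (2.15 ± 0.50, adjusted p = 0.00804) and its relative Mxd1 lowest (0.25 ± 0.50, adjusted p = 0.714), although Mxd1 rose in H3K27Ac (2.01 ± 0.48, adjusted p = 0.00121). Of the hexosamine genes, 1 of 6 rose in H3K18La and 5 of 6 in H3K27Ac. Nagk, the kinase that salvages N-acetylglucosamine, was at 1.52 ± 0.57 (adjusted p = 0.0607) in H3K18La, and Ogt, which places O-GlcNAc on proteins, was at 0.58 ± 0.52 (adjusted p = 0.392). Of the thioredoxin partners of Txnip, 0 of 2 rose in H3K18La and 1 of 2 in H3K27Ac, with Txnrd1 at 1.14 ± 0.53 (adjusted p = 0.117) and Txn1 at 0.91 ± 0.36 (adjusted p = 0.0733) in H3K18La.

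The promoters whose log2(RPKM + 0.5) tracked Txnip most closely over the 10 libraries were Usp12 (Pearson r = 0.988), Dcdc2a (0.987) and Stard10 (0.986), among 4667 promoters of at least 5 RPKM. For Slc2a1 they were Otud1 (0.994), Psd (0.994) and Ankrd12 (0.993). The libraries share their marks, glucose levels and depth, and the median r over all these promoters was already 0.849 with Txnip and 0.930 with Slc2a1, so these values set the likest apart from the rest by little.

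Of the retinal cell type lists, rods were the one in which every fitted promoter rose in both marks. The 8 rod genes rose in both marks, with a median log2 fold change of 2.49 in H3K18La, and their summed RPKM ran from 13.9 to 20.9 at 5 mM and from 68.1 to 164 at 25 mM. In H3K27Ac the sums ran from 56.6 to 103 and from 273 to 479. These and the next counts stand against 26.4% of all promoters in H3K18La (median log2 fold change 0.96) and 59.8% in H3K27Ac (median 1.26). Of 3 fitted cone promoters 1 rose in each mark, of 3 Müller glia promoters 0 in H3K18La and 2 in H3K27Ac, and of 3 bipolar promoters 0 and 3. Of the bipolar promoters 2, Grm6 and Trpm1, averaged under 1 RPKM at 5 mM over both marks and met the minimum through 25 mM, so that count supports nothing. No fitted promoter of the other cell type lists did so. The 1 fitted promoter of amacrine and ganglion cells and the 1 of retinal pigment epithelium did not pass, none of 3 endothelial promoters rose and 1 fell in H3K27Ac, and none of the 4 microglial genes had a promoter peak. The part of the rods in the differences at Slc2a1, Gfpt1 and Txnip was not tested.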

How the data were processed

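CUT&Tag libraries for H3K18La (3 per glucose level) and H3K27Ac (2 per glucose level) were read from a table of 108253 peaks. The authors processed reads with nf-core/cutandrun on GRCm38, called peaks with MACS and annotated them with ChIPseeker 1.34.1, and deposited RPKM for each peak and library. Per the labels the extraction text names another antibody and pA-MNase, whereas the titles name H3K27Ac, and titles were used for grouping. Whether the authors' window normalization entered the RPKM denominators is not given in the sources used here. Deposited fold changes and p-values of the authors' own H3K18La comparison were not used.

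RPKM was turned back into reads, and 100.0% of values came out whole within 0.01 reads. Peaks with a mean of at least 1 RPKM over the 10 libraries were tested on log2(RPKM + 0.5), and fold changes are on that scale, which understates changes of low peaks. Each mark was fitted alone across all such peaks with limma 3.58.1 in R 4.3.3 (lmFit, eBayes with trend; for H3K27Ac the prior degrees of freedom were infinite), with two-sided p-values and Benjamini-Hochberg adjustment at 0.05. The interaction of glucose and mark was fitted over all 10 libraries. For genes, reads of all assigned peaks were divided by their summed width and the denominator, and tested likewise. The scripts were tested on simulated data. A count of 0 allows up to 3 reads. Intervals on read ratios cover counting error only.

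For each member, the strongest promoter peak and the strongest other peak were described library by library. From each pathway list, the genes with the largest and smallest H3K18La log2 fold change were named, and for Txnip and Slc2a1 the 3 promoters with the highest r. Members and lists were chosen with earlier results of these data known. Alternatives were other pseudocounts (0.1 and 1), no minimum, median centring, scaling to reads in peaks, 1 fit of all libraries, a replicate block, averaged replicates, leaving out each library, and voom on recovered reads.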

Additional observations from a re-analysis of the deposited data

How the results depend on the processing

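Without any change of setting, 9 member peaks and 4 member genes rose in H3K18La, 7 peaks and 6 genes in H3K27Ac, and 0 peaks passed the interaction, which stayed at 0 under every alternative run. Median centring gave 1 peak and 2 genes in H3K18La and 0 of each in H3K27Ac. Scaling to reads in peaks gave 0 throughout. Without the minimum there were 0 peaks and 0 genes in H3K27Ac. Deviations of libraries with the same replicate number correlated little (r 0.0132 to 0.0288 between glucose levels and -0.015 to 0.193 between marks). With so few reads per peak, counting noise holds such r low, so whether these libraries were paired cannot be told. The replicate block gave 7 peaks and 4 genes in H3K18La and 0 of each in H3K27Ac. Fitting all libraries together gave 12 peaks and 5 genes in H3K18La, and 6 and 4 in H3K27Ac. Voom on recovered reads, added after seeing the data in place of a planned edgeR fit that was not run, gave 11 and 4, and 10 and 6. With each library left out, the counts ran from 5 to 8 peaks and 2 to 4 genes in H3K18La (19.8% to 32.2% of all peaks and 36.5% to 44.1% of all genes called), and from 0 to 12 peaks and 0 to 7 genes in H3K27Ac (0.0124% to 52.7% and 0.778% to 73.8%). Where not shown to follow from fewer libraries or peaks, the cause was not tested.

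Scaled to reads in peaks, H3K18La log2 fold changes became -0.33 (Slc2a1 promoter), -0.025 (Slc2a1 at 12132 bp), -0.19 (Slc2a1 at 17291 bp), -0.78 (Mlxip promoter), -0.12 (Gfpt1 promoter), -0.59 (Slc2a3 intron) and -0.33 (Arrdc4 promoter), and for genes -0.32 (Arrdc4), -0.76 (Mlxip) and -1.07 (Slc2a3). H3K27Ac became -0.14 (Txnip peak and gene), -0.20 (Slc2a1 at 4836 bp), -0.24 (Mlxip promoter), -0.035 (Gfpt1 upstream), -0.073 (Slc2a3 promoter), -0.34 (Slc2a3 intron) and -0.56 (Arrdc4 at 60418 bp), and for genes -0.027 (Arrdc4), -0.34 (Mlxip) and -0.25 (Slc2a3). Of these, the Slc2a1 and Gfpt1 peaks and the Arrdc4 gene in H3K18La, and the Txnip, Arrdc4 and Slc2a3 genes in H3K27Ac, had been called. Median centring gave H3K18La -0.71 (Mlxip promoter), -0.40 (Slc2a3 intron), -0.53 (Mlxip gene) and -0.77 (Slc2a3 gene), and H3K27Ac -0.34 (Arrdc4 at 60418 bp), -0.33 (Mlxip gene), -0.27 (Slc2a3 gene) and -0.17 (Txnip gene). A pseudocount of 0.1 gave -0.16 at the Mlxip promoter in H3K18La and 0.0023 at the Mlxip intron in H3K27Ac, voom gave -0.29 at the Mlxip promoter in H3K18La, and averaging replicates 2 and 3 at 5 mM gave -0.089 for the Slc2a3 gene. With each library left out, ranges spanned 0 for the Mlxip promoter (-0.22 to 0.80) and intron (-0.94 to 0.63), the Slc2a3 promoter (-0.44 to 0.32) and gene (-0.29 to 0.19) in H3K18La, and for the Mlxip intron (-0.33 to 0.33) and Arrdc4 at 60418 bp (-0.15 to 0.85) in H3K27Ac. At 5 mM, H3K18La peaks of Txnip, Mlx and Mlxip held 0 to 6 reads per library, which limits what could be detected there.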
